A study of Mus musculus with 8 samples.

Results

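Chemokine receptors are represented here by 9 genes: Ccr1, Ccr2, Ccr7, Cxcr2, Cxcr4, Cxcr5, Cxcr6, Cx3cr1 and Ackr3. They were taken by gene name from a read count table of 54532 mouse genes, and all 9 were present. The RNAseq data came from mG+ (GFP+) cells sorted by FACS from female mice aged 8 months. WT mice were Tie2e-cre; TERT+/+; mTmG, and KO mice (EC-Tert-KO) were Tie2e-cre; TERTfl/fl; mTmG, so that every mouse carried Cre under the Tie2e promoter and the reporter that turns recombined cells green. Cells came from subcutaneous adipose tissue (SAT) of mice fed a high fat diet (HFD), and, on chow, from SAT, visceral adipose tissue (VAT) and the gastrocnemius muscle. Each of these 4 tissue and diet settings had 1 WT and 1 KO library. Whether a library pooled several mice is not stated in the sources used here, nor whether 1 mouse gave all the chow samples of its genotype, so p-values measure only the spread among these libraries.

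Chemokine receptors are G protein-coupled receptors that guide leukocytes along gradients of small secreted proteins, the chemokines. Each receptor reads a few ligands, and the set that a cell carries sets where it travels: to lymph node follicles, to inflamed tissue, or into retention near vessels. Adipose tissue holds resident macrophages and lymphocytes that enter through the endothelium, while endothelial cells themselves carry some receptors, among them the scavenging receptor Ackr3.

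Library totals ranged from 6214269 to 18855772 counts. Tert, the targeted gene, had 114 counts in WT and 0 in KO SAT on HFD, 70 and 11 in SAT on chow, and 24 and 7 in muscle. In VAT it had 3 counts in the library labelled WT and 9 in the library labelled KO, which goes against the labels. So few counts, in libraries of 9389345 and 14344720, cannot show whether the labels are right or wrong. All 15 endothelial markers had counts in every library, with summed levels between 424 and 3631 CPM (counts scaled to the TMM-adjusted library total). The libraries also held markers of leukocytes: summed macrophage and monocyte markers ranged from 630.0 to 15054 CPM, B cell markers from 184 to 2572 CPM, and neutrophil markers reached 28336 and 32853 CPM in muscle against 65.8 to 478 CPM elsewhere. Fewer cells of a type and less RNA per cell cannot be told apart in such data. The SAT chow WT library stood apart in Malat1, a nuclear RNA, with 299 CPM against 2176 to 6005 CPM in the other libraries.

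Cxcr4 and Ccr7 were the most abundant of the 9 receptors per length of transcript in SAT and muscle. Cxcr4, the receptor of Cxcl12 that keeps leukocytes in marrow and tissue niches, had between 37.5 and 53.4% of the summed CPM per kilobase of the 9 genes in each library. Ccr7, which brings lymphocytes and mature dendritic cells to lymph nodes, had 40.3 to 52.8% in SAT on HFD and in the KO library of SAT on chow, but 22.6% in WT SAT on chow and 10.9 and 11.8% in VAT. In VAT, Cxcr4 was followed by Ccr1 and Ccr2, with 13.4 to 16.4% each. Cxcr2 and Cx3cr1 were the lowest by median level per length, at 2.92 and 4.52 CPM per kilobase.

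**Figure D1:**
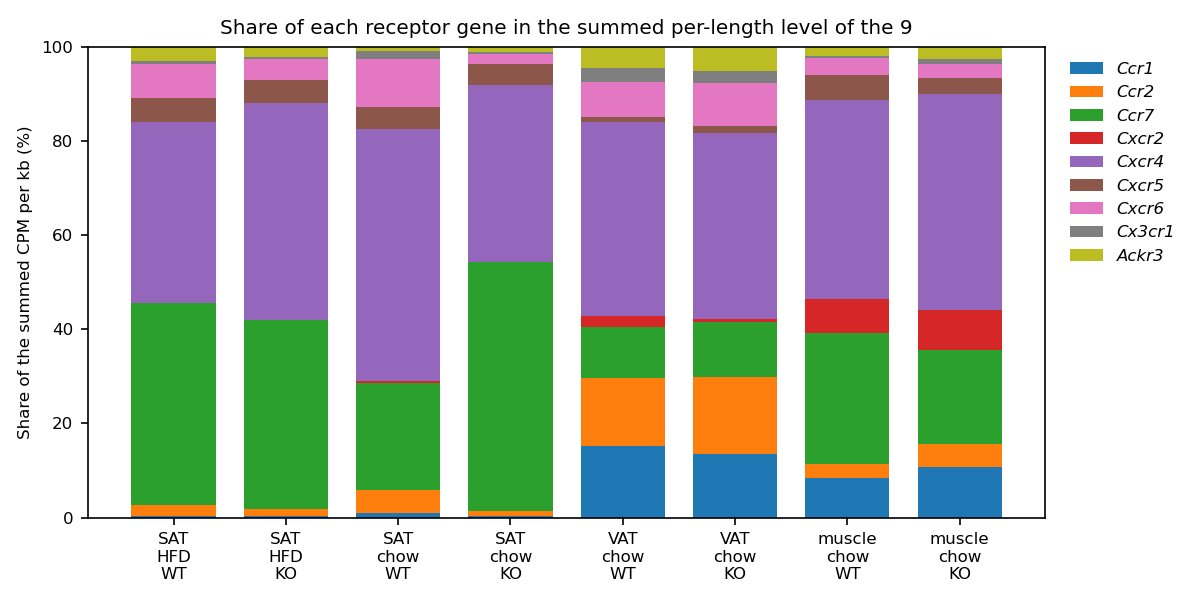
Share (%) of each receptor gene in the summed CPM per kilobase of the 9 genes, 1 bar per library. Cxcr4 held 37.5 to 53.4% everywhere, Ccr7 lay between 10.9% (VAT labelled WT) and 52.8% (SAT chow KO), and Ccr1 lay between 0.276% (SAT HFD KO) and 15.3% (VAT labelled WT).

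The receptors of lymphoid tissue traffic were high in SAT and low in VAT. Ccr7 was at 472 CPM in WT and 566 CPM in KO SAT on HFD, 227 and 1281 CPM in SAT on chow, 97.1 and 109 CPM in VAT, and 330.3 and 179 CPM in muscle. Cxcr5 binds Cxcl13 and places B cells in follicles. It was at 96.6 and 116 CPM in SAT on HFD and at 81.4 and 185 CPM in SAT on chow. In VAT it was at 16.4 and 21.3 CPM, and in muscle at 105 and 52.1 CPM. Among the WT libraries, Ccr7 was highest in SAT on HFD and Cxcr5 in muscle. For both genes the VAT libraries were the lowest and did not overlap with any other library, and the SAT chow KO library was the highest.

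Cxcr4 varied least. Its levels were 385 and 591 CPM in SAT on HFD (WT and KO), 490.0 and 832 CPM in SAT on chow, 334 and 336 CPM in VAT, and 460.2 and 373 CPM in muscle, so that the highest library was 2.49-fold above the lowest.

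Among the receptors of myeloid cells, Ccr1 had a wide range between tissues. Ccr1, a receptor of Ccl3, Ccl5, Ccl6 and Ccl9 on monocytes, macrophages and granulocytes, was at 6.94 CPM in WT and 5.56 CPM in KO SAT on HFD, 12.9 and 13.0 CPM in SAT on chow, 194 and 178 CPM in VAT, and 144 and 137 CPM in muscle. Its highest library was 34.9-fold above its lowest, and the 4 tissue and diet settings did not overlap. Ccr2, the Ccl2 receptor through which monocytes leave marrow and enter tissue, was at 82.1 and 72.1 CPM in SAT on HFD, 172 and 91.5 CPM in SAT on chow, 438 and 518 CPM in VAT, and 121 and 147 CPM in muscle. The VAT libraries lay above all others and those of SAT on HFD below all others, while SAT on chow and muscle overlapped.

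Cx3cr1, the receptor of membrane-bound Cx3cl1 on patrolling monocytes and tissue macrophages, was at 18.2 and 10.6 CPM in SAT on HFD, 39.5 and 16.6 CPM in SAT on chow, 57.5 and 57.6 CPM in VAT, and 16.8 and 22.5 CPM in muscle. As with Ccr2, VAT was highest, but SAT on HFD and muscle overlapped. Cxcr2, which mobilises neutrophils in response to Cxcl1 and Cxcl2, was at 1.30 CPM in WT SAT on HFD and had no count in KO, was at 9.72 and 3.91 CPM in SAT on chow and at 31.2 and 8.11 CPM in VAT, and reached 129.9 and 117 CPM in muscle. The 0 stands for a level below 0.232 CPM, which 3 counts would give in that library.

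Cxcr6, the Cxcl16 receptor of tissue-resident T cells and innate lymphocytes, was at 76.3 and 61.2 CPM in SAT on HFD, 99.7 and 52.2 CPM in SAT on chow, 65.5 and 82.1 CPM in VAT, and 41.6 and 25.5 CPM in muscle. Muscle was lowest, and the 3 adipose settings overlapped. Ackr3, an atypical receptor that takes up Cxcl12 without signalling through G proteins, was at 53.8 and 52.3 CPM in SAT on HFD, 12.9 and 47.6 CPM in SAT on chow, 68.1 and 78.6 CPM in VAT, and 36.5 and 37.1 CPM in muscle. The WT library of SAT on chow was the lowest for Ackr3 and VAT the highest.

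**Figure D2:**
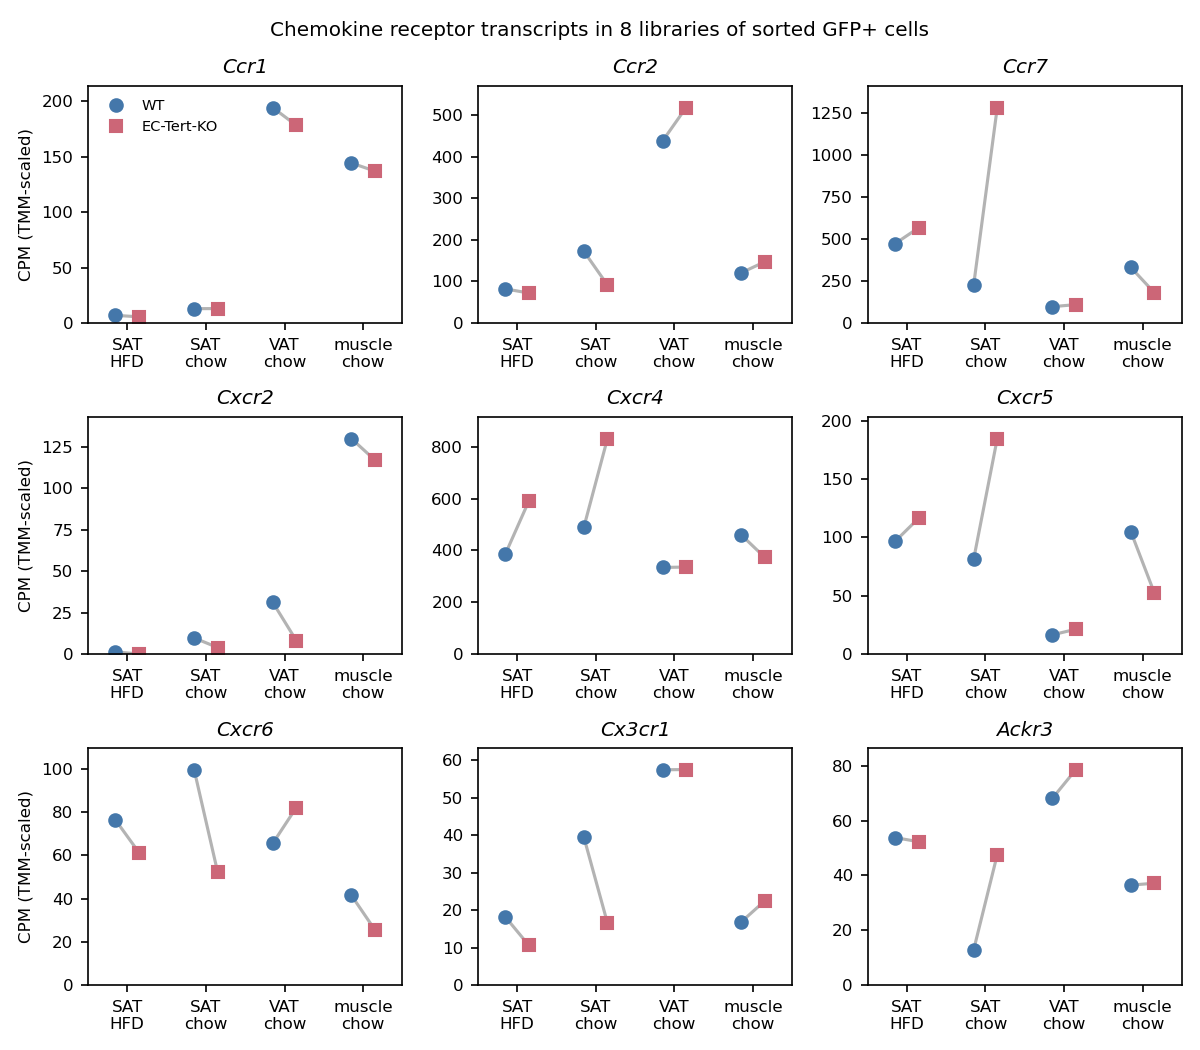
Level of each receptor gene (TMM-scaled CPM, linear axes from 0) in the 8 libraries, 1 panel per gene, with circles for WT and squares for KO joined within each tissue and diet. Ccr1 was at 137 to 194 CPM in muscle and VAT against at most 13.0 CPM in SAT, and Ccr7 reached 1281 CPM in the KO library of SAT on chow.

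The start regions of 4 of these genes are shown because Ccr1 and Cxcr2 were both higher in muscle than in SAT on chow, while Cxcr4 was the most even gene across libraries and Ackr3 is the scavenger of the same ligand. Each run of 300 bases covers 250 bases before and 50 after the RefSeq transcript start (GRCm38.p6), read 5′ to 3′ on the strand of the gene: Ccr1 at chr9:123968643-123968942 (minus strand), Cxcr2 at chr1:74153744-74154043 (plus), Cxcr4 at chr1:128592250-128592549 (minus) and Ackr3 at chr1:90203730-90204029 (plus). Capitals mark letters that match 1 of the 7 motifs described next.
Ccr1: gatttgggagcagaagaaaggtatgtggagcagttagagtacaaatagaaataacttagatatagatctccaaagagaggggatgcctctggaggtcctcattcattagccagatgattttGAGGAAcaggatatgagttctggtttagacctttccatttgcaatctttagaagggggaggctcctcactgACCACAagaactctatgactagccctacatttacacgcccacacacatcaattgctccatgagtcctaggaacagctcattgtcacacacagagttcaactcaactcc
Cxcr2: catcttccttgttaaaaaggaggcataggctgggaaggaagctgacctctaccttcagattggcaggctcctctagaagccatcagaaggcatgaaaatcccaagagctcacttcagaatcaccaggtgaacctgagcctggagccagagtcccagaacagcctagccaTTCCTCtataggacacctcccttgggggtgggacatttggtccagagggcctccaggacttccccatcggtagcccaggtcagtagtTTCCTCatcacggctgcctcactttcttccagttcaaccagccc
Cxcr4: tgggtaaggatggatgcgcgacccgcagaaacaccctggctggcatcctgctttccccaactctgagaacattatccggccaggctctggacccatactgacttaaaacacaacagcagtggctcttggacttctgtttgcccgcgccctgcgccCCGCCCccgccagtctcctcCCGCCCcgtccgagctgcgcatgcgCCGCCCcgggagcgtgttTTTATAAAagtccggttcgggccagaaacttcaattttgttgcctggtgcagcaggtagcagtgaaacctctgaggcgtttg
Ackr3: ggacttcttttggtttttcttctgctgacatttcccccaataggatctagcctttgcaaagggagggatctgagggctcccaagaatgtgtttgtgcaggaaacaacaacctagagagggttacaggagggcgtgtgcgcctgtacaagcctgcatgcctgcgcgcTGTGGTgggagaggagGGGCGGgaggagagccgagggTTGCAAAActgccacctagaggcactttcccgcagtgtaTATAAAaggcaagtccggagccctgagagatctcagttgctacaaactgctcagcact

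The motifs were searched on both strands as exact letters: the TATA box TATAAA, the GC box GGGCGG, the PU.1 core GAGGAA, the C/EBP site TTGCNNAA, the hypoxia response core ACGTG, the AP-1 site TGANTCA and the RUNX site TGTGGT. A promoter sequence was matched by gene symbol for 7 of the 9 receptors (not for Ccr7 and Cxcr5). PU.1, the master factor of myeloid genes, had a letter match in Ccr1 (from position -129) and in Cxcr2 (from -81 and from 7, both on the opposite strand) and in none of the other 5. The same letters occur in 28.3% of the 32851 promoters in the table, so a match is common. Cxcr4 held 3 GC boxes (35.7% of all promoters hold at least 1) and a TATA box found on both strands with overlapping letters (13.6%). Ackr3 held the TATA box letters from -8 (from -30 and -32 in Cxcr4), a GC box, a C/EBP match (10.8%) and a RUNX match (16.8%). RUNX letters also occurred in Ccr1, Cxcr6 and Cx3cr1, and neither the hypoxia core (19.6%) nor the AP-1 letters (7.81%) occurred in any of the 7. Cxcr4 had 20 CG pairs in this window, while the other 6 had between 1 and 8 against a median of 7.0 over all promoters. These matches describe the sequence only.

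Differences between tissues and diets were tested with edgeR's quasi-likelihood test over 16971 genes, with genotype in the model and Benjamini-Hochberg adjustment over all of them. The 3 comparisons against SAT on chow share its 2 libraries, and their values are given side by side. The SE is the size of the log2 fold change divided by the square root of the F statistic.

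In VAT over SAT on chow, Ccr1 and Ccr2 were higher and Cxcr5 was lower. These were 3 of 9 receptors, beside 5.0% of all genes tested. Ccr1 was 14.3-fold higher in VAT (log2 3.84, SE 0.308, adjusted p = 0.00397), and this call held in 15 of 15 alternative settings with log2 differences between 3.84 and 4.06. Ccr2 was 3.69-fold higher (log2 1.88, SE 0.384, adjusted p = 0.0341), and Cxcr5 was 6.92-fold lower (log2 -2.79, SE 0.509, adjusted p = 0.0238). The calls for Ccr2 and Cxcr5 held in 12 and 13 of the 15 settings. Without the VAT library labelled WT the adjusted p was 0.108 for Ccr2 and 0.189 for Cxcr5, without the one labelled KO it was 0.141 and 0.160, and for Ccr2 it was 0.0645 without the KO library of SAT on HFD. Without the WT library of SAT on chow, which stood apart in Malat1, the log2 differences were 3.92 for Ccr1 (adjusted p = 0.00474), 2.61 for Ccr2 (0.00859) and -3.18 for Cxcr5 (0.0127). Without the KO library of SAT on chow that of Cxcr5 was -2.03 (0.0277) and that of Ccr2 was 1.41 (0.0164). In the same comparison 11 of 12 macrophage and monocyte markers and 10 of 15 endothelial markers were higher, and 8 of 8 B cell markers and 8 of 9 T cell markers were lower, and their part in the receptor differences was not tested.

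The other receptors did not pass in this comparison. Ccr7 had a log2 difference of -2.71 (adjusted p = 0.0819), which was -1.05 without the KO library of SAT on chow and -3.54 (adjusted p = 0.00852) without the WT library. Ackr3 and Cxcr2 had log2 differences of 1.41 and 1.40, Cx3cr1 of 1.12, Cxcr4 of -0.95 and Cxcr6 of 0.05, with adjusted p from 0.164 to 0.958. Ackr3 was called in 3 of 15 settings: without the KO library of SAT on chow (log2 2.48, adjusted p = 0.00507, against 0.82 without the WT library), by DESeq2 (0.0417) and with all genes of at least 1 count (0.0164). Ccr7 was called in 4 of 15 settings and Cxcr2 in 1. The median over the 9 receptors was 1.12, and over all genes tested it was -0.13.

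In muscle over SAT on chow, Ccr1 and Cxcr2 were higher, 2 of 9 receptors beside 1.27% of all genes tested. Ccr1 was 10.8-fold higher in muscle (log2 3.44, SE 0.303, adjusted p = 0.00854), a call held in 16 of 16 settings with log2 differences between 3.44 and 3.58. Cxcr2 was 21.9-fold higher (log2 4.45, SE 0.754, adjusted p = 0.0387) and held in 12 of 16. It was lost without the WT library of SAT on chow (adjusted p = 0.081), without the WT library of muscle (0.0535, log2 5.25), without the KO library of muscle (0.297, log2 3.39) and with no genotype term (0.0696). Without the WT library of SAT on chow, the value of Ccr1 was 3.47 (adjusted p = 0.00669). Beside these, 10 of 11 neutrophil markers and 7 of 15 endothelial markers were higher in muscle, and none of the 12 macrophage and monocyte markers was called. Their part in the receptor differences was not tested. Cxcr6 had a log2 difference of -1.16 (adjusted p = 0.228), Ccr7 of -1.33 and Cxcr5 of -0.69, and Ccr2 was close to 0 at 0.05 (SE 0.373). Without the KO library of SAT on chow, Cxcr6 (-1.48, adjusted p = 0.0457) and Ackr3 (1.48, adjusted p = 0.0301) were called and Ccr7 was at 0.22. Without the WT library Ccr7 was called (-2.31, adjusted p = 0.0379), Cxcr6 was at -0.66 and Ackr3 at -0.22. The median over the receptors was -0.40, against -0.11 over all genes.

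In muscle over VAT, edgeR called no receptor, beside 2.02% of all genes tested, although 5 of 9 had an unadjusted p under 0.05 (2171 of all genes) and DESeq2 called 5 (1255 of all genes). Ccr2 had a log2 difference of -1.83 (SE 0.380, adjusted p = 0.0559), Cxcr2 of 3.06 (SE 0.713, adjusted p = 0.0795) and Cxcr5 of 2.10 (SE 0.501, adjusted p = 0.0841). Cx3cr1 and Cxcr6 had log2 differences of -1.52 and -1.21, with adjusted p of 0.182 and 0.184. Without the WT or the KO library of SAT on chow, which enter this comparison only through the genotype term and the spread, 6 and 4 receptors and 1264 and 1159 genes in all were called. For Ccr1, which was high in both, the log2 difference was -0.40 (SE 0.274, adjusted p = 0.681).

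In SAT on HFD over SAT on chow, edgeR called none of the 9 receptors and 0% of all genes, with an unadjusted p under 0.05 in 2 receptors and 1577 genes. DESeq2 called 260 genes, of which 1 was a receptor, Cxcr2. The log2 difference of Cxcr2 was -3.75 (SE 0.882, adjusted p = 0.319 by edgeR and 0.00871 by DESeq2), with 9 and 0 counts on HFD against 157 and 63 on chow. Ccr1 had a log2 difference of -1.06 (SE 0.292, adjusted p = 0.424), and both HFD libraries lay below both chow libraries. The median over all genes was -0.32 with TMM over all genes and -0.09 with DESeq2's size factors, and over the 9 receptors it was -0.43 with TMM. Ackr3 had a log2 difference of 0.96 (adjusted p = 0.605), which was 2.01 (adjusted p = 0.0462) without the KO library of SAT on chow and 0.34 without the WT library. The other 8 values were negative, but that of Cxcr6 (-0.10) was 0.15 with DESeq2's size factors.

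**Figure D3:**
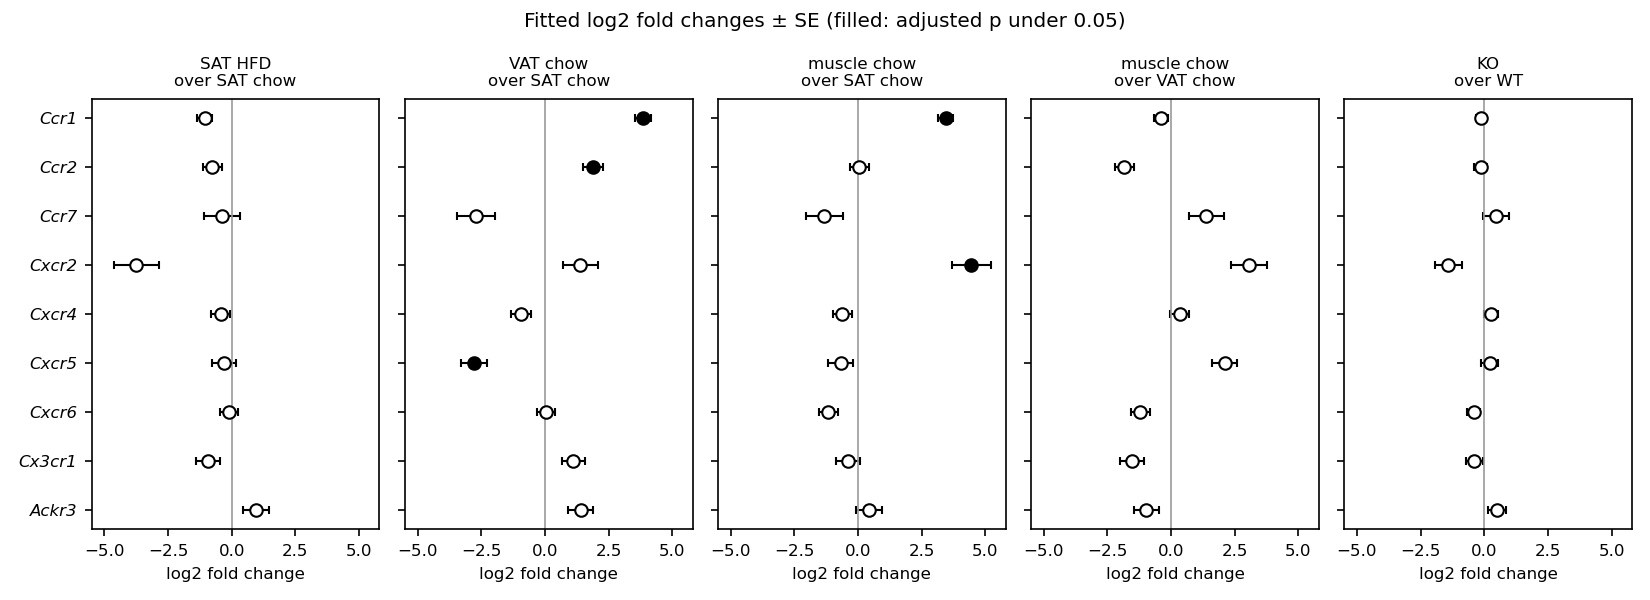
Fitted log2 fold changes of the 9 receptor genes in 5 comparisons, with bars of ± SE and filled points where the adjusted p of edgeR's quasi-likelihood test was under 0.05. Ccr1, Ccr2 and Cxcr5 were called in VAT over SAT chow, Ccr1 and Cxcr2 in muscle over SAT chow, and none in the other 3 comparisons.

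KO was compared with WT across the 4 pairs with tissue and diet as a block. EdgeR's quasi-likelihood test called none of the 9 receptors and 0.00589% of all genes, which was 1 gene, the pseudogene H2-Ea-ps (log2 10.75, adjusted p = 0.0166), named after its values were seen. An unadjusted p under 0.05 was found for 277 genes, and DESeq2 called 19 genes and no receptor. Cxcr2 alone had an unadjusted p under 0.05, with a log2 difference of -1.41 (SE 0.528, adjusted p = 0.9996), and was lower in the library labelled KO in 4 of 4 pairs. These include the VAT pair, whose few Tert counts go against its labels. Without that pair the log2 difference was -1.16 (adjusted p = 0.9999), with Cxcr2 lower in KO in 3 of 3 pairs. It passed only when all genes with at least 1 count were tested (adjusted p = 0.039). In muscle, its small difference turned sign when libraries were scaled by their totals (log2 0.01). Log2 differences of the other 8 receptors lay between -0.41 (Cxcr6) and 0.50 (Ackr3), with adjusted p of 0.9996. Without the SAT chow pair, Ccr7 went from 0.47 to -0.15, Cxcr5 from 0.21 to -0.14 and Ackr3 from 0.50 to 0.06.

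Within a pair there was 1 library per genotype, so no test was made, and a ratio was called when its 95% interval, which covers counting error only, lay wholly beyond 2-fold. In SAT on chow, 30.6% of 16908 genes were called, and 4 of 9 receptors: Ccr7, Cxcr5 and Ackr3 were higher and Cx3cr1 was lower in KO. Ccr7 was 5.65-fold higher (log2 2.50, interval 2.45 to 2.55), Ackr3 3.69-fold higher (log2 1.88, interval 1.66 to 2.11) and Cxcr5 2.27-fold higher (log2 1.18, interval 1.09 to 1.28). Cx3cr1 was 2.38-fold lower (log2 -1.25, interval -1.47 to -1.05), and with DESeq2's size factors or library totals it was no longer called. Cxcr4 was 1.70-fold higher, while Cxcr2, Cxcr6 and Ccr2 were 2.48-, 1.91- and 1.88-fold lower. The interval of Ccr1 included 0 (log2 0.01, interval -0.27 to 0.29). Of all genes called in this pair 62.5% were higher in KO, against 77.5% with library totals, which moved the median of all genes from 0.00 to 0.23.

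Markers of other cells moved in the same pair. Summed T cell markers were lower in the KO library (log2 -1.06, 8 of 9 genes), as were B cell (-0.50, 6 of 8), macrophage and monocyte (-1.19, 10 of 12), NK cell and ILC (-0.75, 7 of 8) and neutrophil markers (-1.88, 11 of 11). Stromal (2.12, 9 of 9 genes higher), mural (1.74, 6 of 7) and endothelial markers (0.42, 11 of 15) were higher. Ccr7 and Cxcr5 were thus higher in a library whose B and T cell marker sums were lower. Cx3cr1, Ccr2, Cxcr2 and Cxcr6 went the way of the myeloid and NK cell markers, while Ccr1 hardly differed (log2 0.01). The part of cell makeup in these ratios was not tested. The same WT library is the one that stood apart in Malat1, whose part was not tested either.

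In VAT, 4.50% of 16439 genes and 1 of 9 receptors were called. Cxcr2 had 281 counts in the library labelled WT and 111 in the library labelled KO, 3.83-fold lower in the latter (log2 -1.94, interval -2.27 to -1.62). Summed neutrophil markers in the same libraries differed by a log2 ratio of -0.30, with 6 of 11 genes lower. Csf3r made up 208 of 478 CPM in the library labelled WT and 158 of 389 CPM in the library labelled KO. The other 8 receptors had log2 ratios between -0.12 (Ccr1) and 0.37 (Cxcr5).

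In muscle, 4.77% of 16967 genes and none of the 9 receptors were called, and 57.8% of the called genes were higher in KO (70.2% with library totals). The nearest were Cxcr5, 2.01-fold lower in KO (log2 -1.01, interval -1.14 to -0.88), and Ccr7, 1.84-fold lower (log2 -0.88, interval -0.95 to -0.81). T cell markers were lower in the same library (log2 -0.62) and B cell markers less so (-0.18). Cxcr6 was 1.63-fold lower beside NK cell and ILC markers at -0.72. Cxcr2 was slightly lower (log2 -0.15) beside neutrophil markers that were higher (0.21, 10 of 11 genes). Ccr2 (0.29) and Cx3cr1 (0.42) were higher beside a macrophage and monocyte marker sum that was slightly lower (-0.08). That sum was mostly Lyz2, with 4817 of 6491 CPM in WT and 4973 of 6154 CPM in KO. Of the 12 genes 9 were lower and 3 higher in KO, with Csf1r at 258 and 133 CPM and C1qa at 76.8 and 24.0 CPM in WT and KO. The part of these markers in the receptor ratios was not tested.

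In SAT on HFD, 23.8% of 15839 genes and none of the 8 receptors with a mean of at least 10 counts were called. Cxcr4 was 1.53-fold higher in KO (log2 0.62, interval 0.55 to 0.68) and Cx3cr1 1.72-fold lower (log2 -0.78, interval -1.14 to -0.42). Cxcr2, with 9 counts in WT and 0 in KO, was at least 5.62-fold lower when 3 counts stand for the 0. That bound leaves out the counting error of the 9 counts, and the interval of the log2 ratio, which includes it, ends at -1.89. Of the 2766 genes with 5 to 20 counts in that WT library, 46.7% also had no count in KO. A 0 from such a count was thus common there. Summed neutrophil markers were higher in the KO library (log2 0.52, 5 of 11 genes higher and 3 lower). Most of that rise was Csf3r, at 5.06 CPM in WT and 28.3 CPM in KO, in sums of 65.8 and 94.4 CPM.

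**Figure D4:**
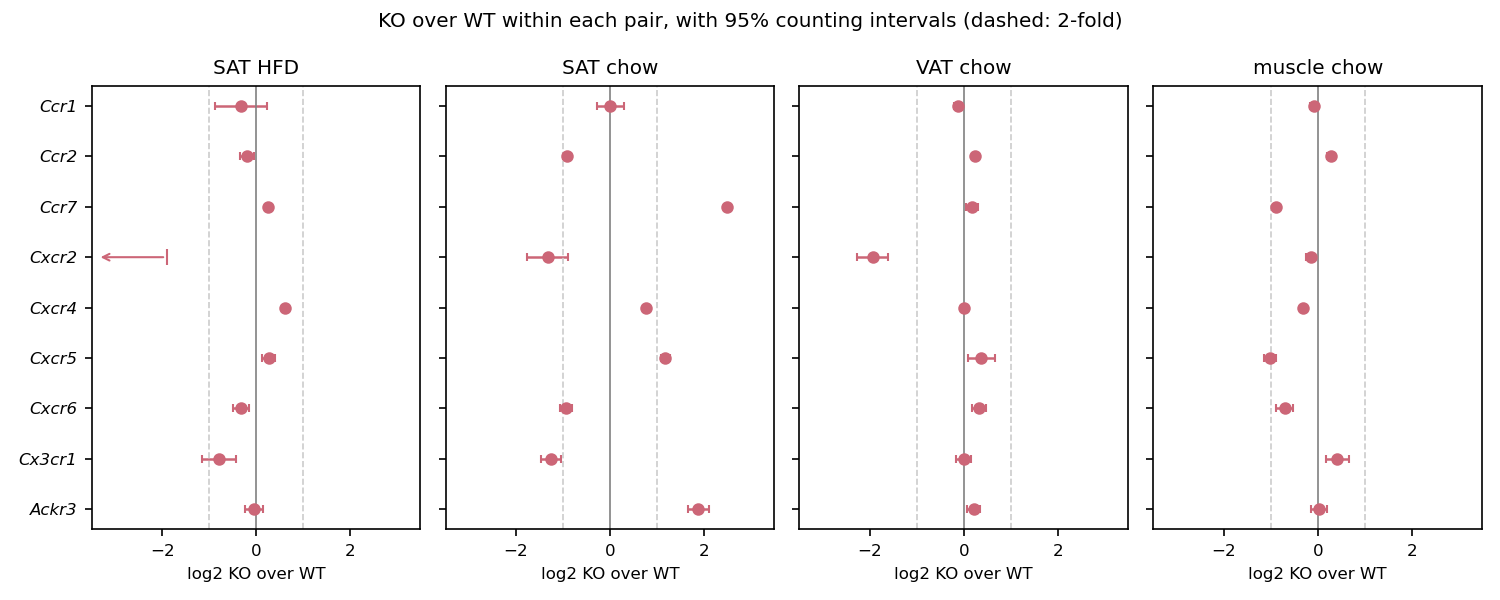
Log2 ratio of KO to WT for each receptor gene within each tissue and diet (1 library per genotype), with 95% intervals that cover counting error only and dashed lines at 2-fold. The arrow for Cxcr2 in SAT on HFD starts at the upper end of its interval because the KO library had 0 counts, and in the SAT chow pair the ratios ran from -1.31 (Cxcr2) to 2.50 (Ccr7).

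Across the 8 libraries, each receptor was set against the summed markers of 13 cell types as a description (Pearson's r of log2 CPM, n = 8, with libraries that share tissue, sort and depth). Ccr1 followed endothelial markers (r = 0.979), satellite cell markers (0.968) and macrophage and monocyte markers (0.961) almost equally. The satellite cell sum was mostly Vcam1, with 116 of 122 CPM in the VAT library labelled WT. Pax7, Myf5, Myod1 and Chodl had no count in either SAT HFD library or in the VAT library labelled KO. In WT muscle the macrophage and monocyte sum was mostly Lyz2, with 4817 of 6491 CPM. Cxcr2 followed neutrophil (0.893) and endothelial markers (0.882) to a like degree. Cxcr5 followed B cell markers (0.913), then epithelial (0.806) and T cell markers (0.804), and Cxcr6 followed NK cell and ILC markers (0.862). The highest value for Ccr2 was with adipocyte markers (0.903), a list at 0 in both libraries of SAT on HFD and at most 15.1 CPM in all, ahead of macrophage and monocyte markers (0.888). Cx3cr1 was highest with dendritic cell (0.875) and mast cell and basophil markers (0.873), ahead of macrophage and monocyte markers (0.781). Cxcr4 was highest with epithelial markers (0.803). Ccr7 (B cell, 0.746) and Ackr3 (mural, 0.654) had no list that they followed closely. Cxcr2 was at 31.2 CPM in the VAT library labelled WT, beside 478 CPM of neutrophil markers, and at 129.9 CPM in WT muscle, beside 28336 CPM.

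**Figure D5:**
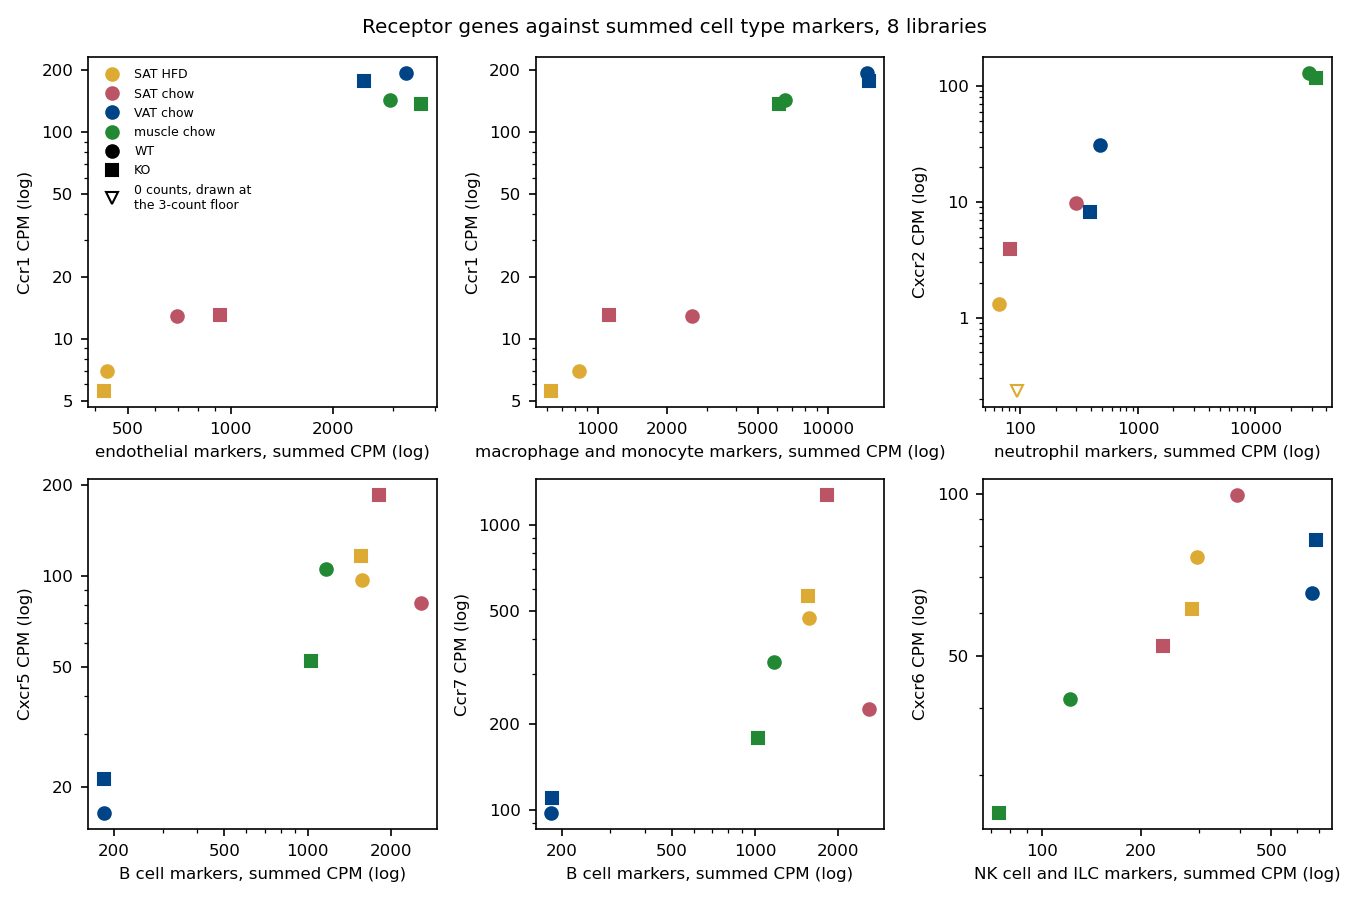
Level of a receptor gene against the summed level of a marker list in the 8 libraries (CPM, log axes), coloured by tissue and diet, with circles for WT, squares for KO and an open triangle for 0 counts drawn at the level of 3 counts. Ccr1 split the libraries into SAT (at most 13.0 CPM) and VAT with muscle (at least 137 CPM), and Ccr7 reached 1281 CPM in the SAT chow KO library with a B cell sum of 1817 CPM, below the 2572 CPM of the SAT chow WT library.

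Among the receptors themselves, Ccr2 and Cx3cr1 had the highest correlation (r = 0.946, n = 8), followed by Ccr7 and Cxcr5 (0.932), and Ccr2 and Cxcr5 had the lowest (-0.928). Of 12367 genes that averaged 50 counts or more, those most like Ccr1 were Esam (r = 0.996), Xdh (0.995) and Robo4 (0.992). Esam and Robo4 are endothelial surface proteins and are in the endothelial list. They were among 175 genes with r over 0.95 to Ccr1, against 5 to 63 such genes for each other receptor. Those most like Ccr2 were Mfsd1, Unc93b1 and Pea15a (0.987 to 0.990), and like Cx3cr1 Tm9sf4, Idua and Leprot (0.972 to 0.988). For Ccr7 they were Unc45a, Taf1d and Ctla4 (0.982 to 0.985), the last a T cell checkpoint receptor, and for Cxcr5 Rab3ip, Satb1 and Nfatc3 (0.974 to 0.978). Cxcr6 was most like Tnfrsf25, Ccl5 and Klra7 (0.952 to 0.968), genes of T and NK cells. Cxcr2 was most like Nck1, Sh3bp4 and Gbe1 (0.981 to 0.990), Cxcr4 like Spata13, Cnot7 and Bicral (0.972 to 0.980), and Ackr3 like Baiap2l1, Gm43912 and Kctd6 (0.977 to 0.982). Only 5 of these 27 genes stayed among the 3 most alike by Spearman's rho.

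Several ligands of the 9 receptors were higher in VAT. Of 21 ligand genes 18 were tested, and 7 were higher and 0 lower in VAT over SAT on chow, with a median log2 difference of 3.36. Of all 16971 genes tested, 531 were higher and 318 lower in this comparison. The cell type markers that differed in it are given above, and their part in the ligand differences was not tested. Cxcl2, a ligand of Cxcr2, was at 1432 and 1885 CPM in VAT and at 12.7 and 91.0 CPM in SAT on chow (log2 5.16, SE 0.900, adjusted p = 0.0204). The Ccr1 ligands Ccl6 and Ccl9 had log2 differences of 3.75 (adjusted p = 0.00961) and 3.85 (0.00524). Cxcl12, the ligand of Cxcr4 and Ackr3, was 4.10-fold higher (log2 2.04, SE 0.418, adjusted p = 0.0352). Ccl2, the main ligand of Ccr2, was at 239 and 232 CPM in VAT and at 5.01 and 22.6 CPM in SAT on chow (log2 4.04, SE 0.844, adjusted p = 0.0372). In muscle over VAT 2.02% of all genes were called, and 3 ligands, all lower. They were Ccl2 (log2 -5.34, adjusted p = 0.0295), Ccl6 (-2.57, adjusted p = 0.0383) and Ccl9 (-3.23, adjusted p = 0.00905). In muscle over SAT on chow 1 ligand was called beside 1.27% of all genes: Ccl3 (log2 2.17, adjusted p = 0.0255), named after its values were seen. No ligand and 0% of all genes were called in SAT on HFD over SAT on chow.

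Of 16 other chemokine receptors 15 were tested. Among all genes tested, 5.0% were called in VAT over SAT on chow and 2.02% in muscle over VAT. In VAT over SAT on chow 1 was higher, Ccrl2, a non-signalling chemerin-binding receptor (log2 2.58, SE 0.521, adjusted p = 0.0335), and 2 were lower, Ccr6 of B cells and some T cells (-4.32, adjusted p = 0.0047) and the gut-homing receptor Ccr9 (-3.06, adjusted p = 0.0106). In muscle over VAT, Ccr6 was higher (3.09, adjusted p = 0.0125) and Ccr8, found on regulatory T cells, was lower (-4.31, adjusted p = 0.00946).

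Of 21 genes that act downstream of the receptors, 2 were higher and 1 lower in VAT over SAT on chow, beside 5.0% of all genes tested. Grk5, a kinase that switches off active receptors, had a log2 difference of 2.25 (adjusted p = 0.0175) and Arrb1, an arrestin, of 1.48 (0.0341), while the kinase Grk6 had -1.45 (0.0414). Gnai2, the inhibitory G protein through which these receptors signal, had 0.07 (adjusted p = 0.937), and Rac2, a GTPase of leukocyte movement, had -1.67 (0.121). None of the 3 lists had a gene called in KO over WT by edgeR, which called 0.00589% of all genes.

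The 9 genes lie on chromosomes 9 (Ccr1, Ccr2, Cxcr5, Cxcr6 and Cx3cr1), 1 (Cxcr2, Cxcr4 and Ackr3) and 11 (Ccr7), at the same GRCm38 coordinates in the table and in GENCODE M21. Cxcr5 (chr9:44511787-44561877) shares 110 exonic bases, 3.30% of its own, with Bcl9l on the opposite strand, and Cx3cr1 shares 78 (1.73%) with Gm33858. Of the 50-base runs of the Cxcr2 transcripts 4.01% also occur in transcripts of other genes, and of those of Ccr2 1.91%. These are shares of bases and of runs, and they set no limit on the share of counts affected. Over the 8 libraries Bcl9l had 9338 counts beside 9325 for Cxcr5, and Gm33858 had 33 beside 3053 for Cx3cr1. The use of strand and of multiply mapped reads in counting is not given in the sources used here, so the counts of these genes are uncertain in that respect.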

How the data were processed

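RNA of sorted mG+ cells was sequenced in 8 libraries, 1 per genotype, tissue and diet. The authors deposited read counts per gene, not normalized; the submitters' processing notes name HISAT2 2.0.5 and GRCm38 (mm10). The counting program and its use of strand are not given in the sources used here. Groups came from the labels, which do not say whether libraries came from separate animals, so p-values measure the spread between libraries. With 1 library per genotype, tissue and diet, that spread includes any difference of the KO to WT ratio between tissues and diets. The 9 receptors and all gene lists were chosen with earlier results of these data known.

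Counts were scaled by TMM over all 54532 genes. The 16971 genes that averaged 10 counts or more were tested with edgeR 4.0.16 (R 4.3.3, robust quasi-likelihood test, tissue and diet plus genotype, 3 residual degrees of freedom), and a call was an adjusted p under 0.05 (Benjamini-Hochberg). DESeq2 1.42.0 was an alternative. Within pairs, exact conditional binomial 95% intervals of the KO to WT ratio were used, with a prior count of 0.5 for the ratio itself, and a count of 0 was taken as 3 counts for bounds. Intervals and floors cover counting error only. Totals of 6214269 to 18855772 counts put 3 counts at 0.184 to 0.434 CPM. Levels between genes were divided by gene length. From each list of other receptors, ligands and signalling genes up to 5 were named, first those called in any comparison in order of mean CPM, then those of highest mean CPM, and for each receptor the 3 genes of highest Pearson correlation. A gene that this rule would name is not reported here. Of 102 gene names given to more than 1 gene the first entry was used. Scripts used Python 3.11.15, pandas 2.3.3, numpy 2.4.6, scipy 1.17.1 and matplotlib 3.10.9, and the tests were tested on simulated data. Alternatives were other scalings, filters, designs and tests and leaving out each library or pair.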

Additional observations from a re-analysis of the deposited data

Results flagged for a closer look

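For 6 receptors the ratio of KO to WT went in opposite directions in different tissues, each with an interval that left out 0, by the labels. Each ratio compares 1 library with 1 library, and the difference between tissues was not tested. How many of all genes meet the same rule was not counted, so the 6 are not shown to exceed that share. The intervals cover counting error only, and in the SAT chow pair 30.6% of all genes lay wholly beyond 2-fold. For Ccr7 the log2 ratio was 2.50 in SAT on chow and -0.88 in muscle, and for Cxcr5 it was 1.18 and -1.01. Cxcr4 had 0.76 in SAT on chow and -0.30 in muscle. Ccr2 had -0.91 in SAT on chow and 0.29 in muscle, and Cx3cr1 had -1.25 and 0.42. For Cxcr6 the values were -0.93 in SAT on chow and 0.33 in VAT, where the few Tert counts go against the labels. Of the 6, only Cxcr6 rests on the VAT pair, and without that pair 5 remain. With the VAT direction turned, Cxcr6 would leave and Cxcr2 (VAT -1.94 as labelled) and Ackr3 (0.21 as labelled) would enter, since their SAT chow ratios were -1.31 and 1.88. The SAT chow pair enters all 6 contrasts.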

How the results depend on the processing

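The labels give no replicate numbers, and KO and WT were paired by tissue and diet as the block. Without it KO over WT called 0 genes and Ccr2 was 0.029. Every count below is of genes by an adjusted p under 0.05, with receptors named as such, and the cause of each change was not tested. With all genes of at least 1 count, calls were 317 (SAT HFD over SAT chow, 1 receptor), 2100 (VAT over SAT chow, 6 receptors), 971 (muscle over SAT chow), 1159 (muscle over VAT, 5 receptors) and 42 (KO over WT, 1 receptor). With DESeq2 they were 260 (1 receptor), 2310 (5 receptors), 1063, 1255 (5 receptors) and 19. With no genotype term they were 338 in muscle over SAT chow (1 receptor) and 539 in muscle over VAT (1 receptor), and VAT over SAT chow gave Cxcr6 -0.040. With a mean of at least 50 counts 1 receptor was called in muscle over VAT. Leaving out the VAT pair and TMM over the tested genes only were chosen after seeing the data, and the first called 1 gene in SAT HFD over SAT chow. There Cxcr6 reversed to 0.10 without the VAT pair, 0.15 with DESeq2 or its size factors and 0.21 with library totals. Intervals beyond 1.5-fold called 8315 genes in the SAT chow pair (8 receptors), 1562 in VAT and 1870 in muscle (2 receptors), where Cxcr2 was 0.011 with library totals. By Spearman's rho 5 of the 27 most alike genes remained. Leaving out 1 library at a time gave 0 to 441 genes and 0 to 1 receptors in SAT HFD over SAT chow, 108 to 3510 and 1 to 4 in VAT over SAT chow, 39 to 1771 and 1 to 4 in muscle over SAT chow, and 39 to 1264 and 0 to 6 in muscle over VAT; leaving out a pair gave 0 (VAT) to 2 (muscle) genes and 0 receptors in KO over WT. The highest counts came without the SAT chow KO library (without SAT chow WT in muscle over VAT), and the lowest in the last 3 without a library of VAT or muscle. Uncalled receptors that turned sign ranged as follows. In SAT HFD over SAT chow they were Ccr7 (-1.21 to 1.28), Cxcr5 (-0.70 to 0.46) and Cxcr6 (-0.43 to 0.43). In VAT over SAT chow Cxcr6 ranged from -0.30 to 0.66. In muscle over SAT chow they were Ccr2 (-0.43 to 0.72), Ccr7 (-2.31 to 0.22), Cxcr5 (-1.57 to 0.11), Cx3cr1 (-0.95 to 0.32) and Ackr3 (-0.22 to 1.48). In muscle over VAT Cxcr4 ranged from -0.093 to 0.66, and in KO over WT Ccr2 from -0.29 to 0.11, Ccr7 from -0.15 to 0.94 and Cxcr5 from -0.14 to 0.61. No called receptor turned sign. Differences of low genes, such as Cxcr2 in SAT on HFD with 9 counts in WT and 0 in KO, rested on few counts and on 1 library per genotype.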
